A study of Rattus norvegicus with 54 samples.

Results

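Messenger RNA of 6 genes of the neuronal cytoskeleton and of neurite growth was followed in cultures of rat cortical neurons. The genes were Map2, Mapt, Nefl, Nefm, Gap43 and Ncam1. They were taken by Ensembl identifier, each kept only if the count table placed it on the stated chromosome, and all 6 of the 30560 genes in the table were kept. Map2 and Mapt (tau) encode microtubule-associated proteins, known for their enrichment in dendrites and in axons respectively. Nefl and Nefm encode the light and medium neurofilament subunits, which assemble together into the intermediate filaments of axons. Gap43 is a membrane-bound protein of growth cones, and Ncam1 is a cell adhesion molecule of the neuronal surface. All 6 are textbook genes of differentiating and mature neurons, and neurofilament and tau proteins are widely measured in body fluids as signs of axonal damage.

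The cultures came from the cortex of rat embryos at day 18 of gestation (E18) and were profiled by RNA sequencing in 54 libraries. A culture was left non-transfected (called untransfected here), received AAV_SYN_GFP (a control adeno-associated virus, called GFP), or received AAV_SYN_rMBD3_GFP (the virus that carries rMBD3 together with GFP, called rMBD3). The name SYN denotes the synapsin promoter, which is active mainly in neurons, so the viral product is expected mainly there, while libraries hold RNA of all cells in the well. Each of these 3 arms was kept in standard medium with magnesium or in medium without magnesium, which the labels describe as epileptiform, and was sampled at 2, 6 and 24 h. This gives 18 groups of 3 libraries, and each library of a group came from a different cell culture, numbered 1 to 3 across all groups. Strain, sex and the age of the cultures are not given in the sources used here. The study asked about the role of Mbd3 in the development of epilepsy.

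Total counts per library were 14448927 to 39691105, with a median of 26121007. The count table holds no gene names and no table at hand pairs its identifiers with symbols. Levels of Mbd3 itself, of other cytoskeletal genes and of the markers of neurons and glia were therefore not analysed here. The name "neurons" rests on the labels, since the 6 genes were chosen beforehand as neuronal genes and cannot test it. In 1 library, untransfected with magnesium at 24 h from culture 3, mitochondrial genes took 4.9% of counts, the highest share in any library together with another at 6 h. Calls of the 6 genes that turn on this library are given with and without it. Culture 1 also stood apart at 24 h, as described below.

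The 6 genes lie on 5 chromosomes, here in mRatBN7.2 coordinates. Map2 (ENSRNOG00000011841) spans chr9:67723371-67979809 on the plus strand with 8285 bases of exon, and Mapt (ENSRNOG00000005133) spans chr10:89138627-89236129 on the plus strand with 8083. Gap43 (ENSRNOG00000001528) spans chr11:58376371-58470045 on the plus strand with 1481 bases of exon, and Ncam1 (ENSRNOG00000031890) spans chr8:49865633-50166014 on the minus strand with 8658. Nefl (ENSRNOG00000013658) occupies chr15:42301916-42305793 on the plus strand with 2030 bases of exon, and Nefm (ENSRNOG00000013916) occupies chr15:42360454-42365755 on the minus strand with 3061. The neurofilament genes are neighbours: 54.7 kb separate them, with 0 annotated genes between, and they are transcribed from opposite strands. Counting used strand, so their reads were kept apart from antisense reads.

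The promoter of Map2 is shown because Map2 had the largest change over time of the 6, and because it is the 1 gene of the 6 found in the RefSeq promoter table (assembly GRCr8). The sequence covers 250 bases before to 50 bases after the annotated start, on chromosome 9 from 75346440 to 75346739 of GRCr8, plus strand; this assembly differs from that of the counts.
Map2 promoter: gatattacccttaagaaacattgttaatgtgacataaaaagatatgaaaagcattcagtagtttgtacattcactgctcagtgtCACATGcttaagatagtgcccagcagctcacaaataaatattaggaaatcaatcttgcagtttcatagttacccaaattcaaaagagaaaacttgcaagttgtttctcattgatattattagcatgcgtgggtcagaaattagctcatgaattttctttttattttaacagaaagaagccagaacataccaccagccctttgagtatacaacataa
Capitals mark its match to CANNTG, the E-box pattern bound by neuronal basic helix-loop-helix factors, at base 85 of the window. This was the 1 match, and 72.1% of 33469 promoters of the same length held at least 1. Searched on both strands, the window held 0 matches to TGACGTCA (1.83% of promoters hold it), to its shorter part TGACG (21.2%), to TATAAA (14.2%), to GGGCGG (33.1%) and to CCAAT (37.5%). These letters describe the window and were not tied to any measurement.

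All 6 genes were abundant. Each passed the filter on low counts in the fit of 17172 genes, and their counts per library ran from 467 for Nefl to 68934 for Mapt. Levels are given as CPM (counts scaled to library size in the usual unit), and levels of different genes are compared only as CPM per kb of exon. Over the 54 libraries Gap43 had the highest mean at 566.5 ± 290.3 CPM per kb (SD, n = 54), which was rank 71 of the 17172 genes. Nefl had 134.8 ± 79, Mapt 132.2 ± 66.3 and Nefm 130.5 ± 82.7 CPM per kb, values whose differences are far smaller than their SDs. Ncam1 followed with 66.4 ± 44.3 and Map2 with 52 ± 38.1 CPM per kb, at ranks 996 and 1359.

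The order changed with time. At 2 h it ran from Gap43 (778.4 ± 141.7 CPM per kb, SD, n = 18) through Nefl (204.6 ± 42), Mapt (200 ± 23.4), Nefm (150.5 ± 52.1) and Ncam1 (119.3 ± 24.5) to Map2 (95.8 ± 27.4). At 24 h Gap43 was still first (333.3 ± 296.3 CPM per kb, n = 18), but Nefm (103.9 ± 104.1) stood above Nefl (82.3 ± 77.4) and Mapt (65.5 ± 48.8), with Ncam1 (20 ± 9.89) and Map2 (15.7 ± 11.7) last. Apart from Gap43 at 2 h, neighbours in either order differed by less than the larger of their SDs.

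The time course asks how expression moved after the start of the magnesium-free or control incubation. All 6 genes had lower mean levels at 24 h than at 2 h, and 5 of the 6 passed the test, all of them lower. Map2 and Ncam1 fell most, to 0.158 and 0.164 times their level at 2 h by the fitted fold change. Mapt fell to 0.296 times, Nefl to 0.353 times and Gap43 to 0.374 times, and the neurofilament gene Nefm (0.623 times) did not pass. Change over time was common in these cultures: 69.5% of all tested genes passed the same test and 35.3% passed as lower, so a call alone does not set these genes apart. The size of change did lie toward the lower end: the median log2 fold change of the 6 was -1.63, against 0.02 for all genes, whose median absolute change was 0.7. The mean share of mitochondrial genes in the counts was 1.89% ± 0.475 (SD, n = 18) in the 2 h libraries, 2.78% ± 0.933 in those of 6 h and 2.66% ± 0.907 in those of 24 h, and its part in the time result was not tested. In bulk RNA, fewer neurons and less of each RNA per neuron cannot be told apart. All libraries of a time point share that time, so ageing of the cultures and time since the change of medium cannot be told apart either.

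**Figure D1:**
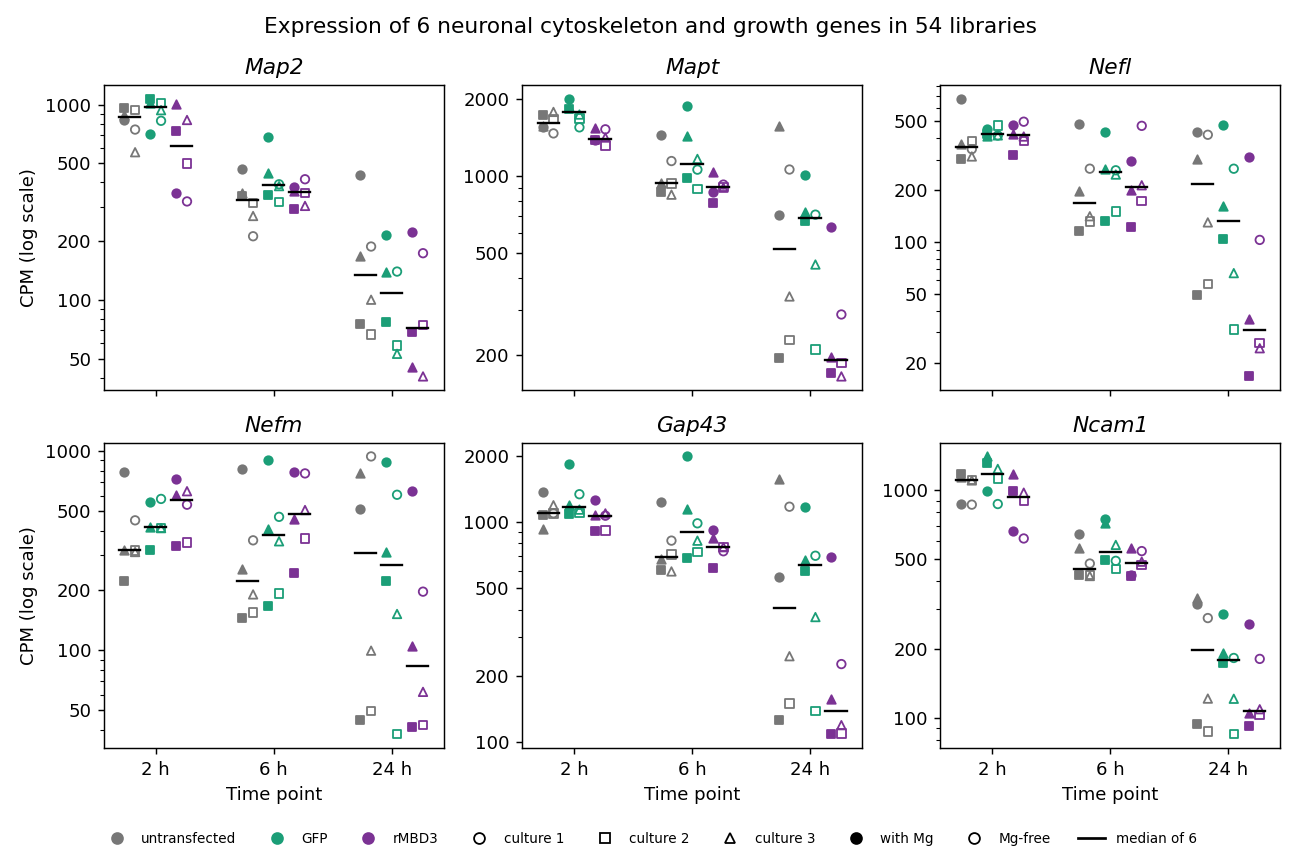
CPM on a log axis for each gene in the 54 libraries at 2, 6 and 24 h, with colour for construct, filled (with magnesium) or open (without) symbols, symbol shape for culture and a bar at the median of the 6 libraries of each construct and time. Libraries lie close together at 2 h and spread widely by 24 h. Of the 6, Ncam1 is the gene whose 24 h libraries (84.7 to 335.7 CPM) all lie below its 2 h libraries (614.7 to 1411.7 CPM). How many of all genes separate in this way was not computed.

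Among the microtubule genes, Map2 had 319.6 to 1071.9 CPM at 2 h (median 835.7, 18 libraries), 212 to 684.9 at 6 h (median 351.8) and 40.6 to 437.8 at 24 h (median 88.9). At 24 h, 1 library of untransfected culture 1 with magnesium was the only one to reach the range seen at 2 h. From 2 to 24 h Map2 fell by 2.66 ± 0.22 on the log2 scale (SE of the fit; adjusted p = 1.15e-13, edgeR), averaged over the 6 construct and medium conditions. Map2 was lower at 24 h in 18 of 18 same-numbered pairs. Mapt had 1319.9 to 2011.9 CPM at 2 h (median 1565.6), 787.2 to 1891.3 at 6 h (median 941.3) and 165.3 to 1577.2 at 24 h (median 396.1). Its highest value at 24 h came from the library with the 4.9% mitochondrial share, and it alone reached the 2 h range. The log2 fold change of Mapt was -1.75 ± 0.19 (adjusted p = 1.59e-10, edgeR), lower in 17 of 18 pairs.

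The neurofilament genes varied most between libraries. Nefl had 300.4 to 673.8 CPM at 2 h (median 413.1), 116 to 481.2 at 6 h (median 207.1) and 16.7 to 475.4 at 24 h (median 103.7). At 24 h, 5 libraries lay within its 2 h range, 4 of them from culture 1. The log2 fold change of Nefl from 2 to 24 h was -1.5 ± 0.32 (adjusted p = 8.83e-05, edgeR), lower in 16 of 18 pairs. Nefm had 224.3 to 787.5 CPM at 2 h (median 415.3), 146.1 to 906.3 at 6 h (median 361.1) and 38 to 942.8 at 24 h (median 174.8). Here 7 libraries at 24 h lay within or above the 2 h range, 5 of them from culture 1. Its log2 fold change was -0.68 ± 0.37 (adjusted p = 0.102, edgeR), lower in 14 of 18 pairs. With the culture number as a block the value was -1.14 ± 0.25 (adjusted p = 8.66e-05, edgeR; 73% of genes passed in that fit), and Nefm then passed, as it did without culture 1 (-1.6, adjusted p = 0.000191).

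Gap43 and Ncam1, the growth cone and adhesion genes, were far apart in how uniformly they fell. Gap43 had 909.5 to 1825.4 CPM at 2 h (median 1094.5), 595.8 to 1984.6 at 6 h (median 769.6) and 108.7 to 1566.6 at 24 h (median 307.5). Of its 24 h libraries, 3 reached the 2 h range, 2 from culture 1 and the remaining one the culture 3 library with the high mitochondrial share. The log2 fold change of Gap43 was -1.42 ± 0.25 (adjusted p = 4.38e-06, edgeR), lower in 16 of 18 pairs. Ncam1 had 614.7 to 1411.7 CPM at 2 h (median 1052.7), 420.1 to 749.8 at 6 h (median 487.9) and 84.7 to 335.7 at 24 h (median 147.7). Its libraries at 24 h did not overlap those at either earlier time, and the share of all genes that separate in this way was not computed. The log2 fold change of Ncam1 was -2.61 ± 0.16 (adjusted p = 6.21e-18, edgeR), lower in 18 of 18 pairs.

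Part of the fall was already present at 6 h. Between 2 and 6 h, 4 of the 6 passed, all lower, with 49.1% of all genes called (26.9% as lower). Map2 changed by -1.11 ± 0.21 (adjusted p = 3.27e-05, edgeR) and Ncam1 by -1 ± 0.15 (6.17e-07) on the log2 scale. Mapt changed by -0.62 ± 0.19 (adjusted p = 0.00567) and Nefl by -0.82 ± 0.32 (0.0321, edgeR). The calls of Mapt and Nefl were lost without culture 3 (adjusted p = 0.0907 and 0.249, edgeR). That of Nefl was also lost without culture 2 (0.18) and without the filter on low counts (0.0525). It was lost too without the 24 h library of high mitochondrial share (-0.75 ± 0.33, adjusted p = 0.0551, edgeR). That library is in neither group here but enters the shared fit, and why the value moved was not tested. The 6 h library of similarly high share, which is in this comparison, was left out only with the rest of culture 1. Gap43 (-0.43 ± 0.25, adjusted p = 0.152) and Nefm (-0.18 ± 0.37, adjusted p = 0.728, edgeR) did not pass.

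Between 6 and 24 h, 4 of the 6 again passed as lower, with 50.6% of all genes called (26.3% as lower), with Gap43 and not Nefl among them. Ncam1 changed by -1.61 ± 0.15 (adjusted p = 2.76e-11), Map2 by -1.56 ± 0.21 (1.23e-07), Mapt by -1.13 ± 0.19 (4.16e-06) and Gap43 by -0.99 ± 0.25 (0.00103, edgeR). Nefl (-0.69 ± 0.32, adjusted p = 0.0696) and Nefm (-0.51 ± 0.37, adjusted p = 0.265) did not pass. With culture as a block both did, at -0.94 ± 0.22 (0.000348) and -0.79 ± 0.24 (0.00526, edgeR), with 56.5% of genes called in that fit.

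The depth of the fall depended on the culture. The mean log2 difference in CPM between 24 and 2 h, over 6 pairs per culture, was -1.46, -3.59 and -3.46 for Map2 in cultures 1, 2 and 3. For Ncam1 it was -1.72, -3.42 and -2.98, and for Mapt -1.21, -2.72 and -1.96. Gap43 had -0.98, -2.66 and -1.66. The widest gaps were those of the neurofilament genes, at -0.63, -3.24 and -2.19 for Nefl and -0.08, -2.5 and -1.35 for Nefm. For each of the 6 genes the difference was smallest in culture 1 and largest in culture 2. Mitochondrial genes took 3.21% ± 0.798 of counts in culture 1 at 24 h, 2.08% ± 0.272 in culture 2 and 2.68% ± 1.15 in culture 3 (SD, n = 6 each), and their part in the culture difference was not tested. Counts of the 6 genes together made up 0.419% to 0.617% of a library at 2 h and 0.0501% to 0.424% at 24 h.

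**Figure D2:**
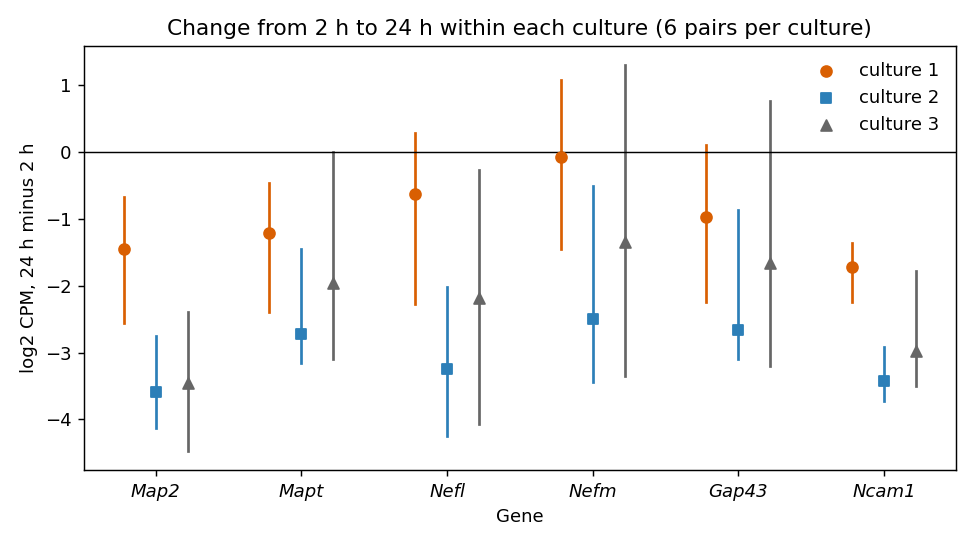
Difference in log2 CPM between 24 and 2 h for each gene, by culture: points are means of the 6 construct and medium pairs and lines run from the lowest to the highest pair. Culture 1 sits highest for every gene, and its mean for Nefm (-0.08) is close to no change while that of culture 2 is -2.5.

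Likeness between the 6 profiles varied. Profiles over the 18 groups were compared as mean log2 CPM centred on each gene's own mean, and likeness was the root-mean-square (RMS) difference, where 0 means the same profile. The closest of the 15 pairs were Mapt and Gap43 (0.138) and Map2 and Ncam1 (0.154). For Map2, Ncam1 was the closest of all 17171 other tested genes. The rest had genes outside the 6 nearer than any member. Their nearest member ranked 7 for Ncam1, 10 for Gap43, 23 for Mapt, 41 for Nefl and 88 for Nefm. Nefl and Nefm, although neighbours that encode partner subunits, were 0.428 apart, and Nefl was closer to Mapt (0.273) and Nefm to Gap43 (0.348). The widest gap was between Map2 and Nefm, at 0.757. Groups share cultures and time points, so these distances are descriptions of the same 54 libraries.

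Outside the 6, the genes named by likeness were those with the smallest distances. ENSRNOG00000013657 (chr3:168416810-168425056) was 0.081 from Mapt, had a mean of 391.1 CPM and changed by -1.69 from 2 to 24 h on the log2 scale. ENSRNOG00000069600 (chr10:105993087-106005260) was 0.088 from Gap43, with a mean of 149.9 CPM and a change of -1.43. No table at hand gives their symbols.

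Of the 6, Map2 and Ncam1 had the largest changes over time and also the longest spans. The order did not hold among the rest: Nefl, the shortest, changed by -1.5 and Gap43 by -1.42 on the log2 scale. Whether span plays a part was not tested. From first to last base Ncam1 covers 300382 bases and Map2 256439, Mapt 97503 and Gap43 93675, and Nefm and Nefl only 5302 and 3878. Among all tested genes spanning over 200 kb (935 genes), the median log2 fold change from 2 to 24 h was -0.8 and 70.6% were lower. The median was -0.08 for genes of 100 to 200 kb and 0.08 for 2219 genes of 50 to 100 kb. It was 0.07 for genes of 10 to 50 kb and 0.02 for 5421 genes under 10 kb. Map2 and Ncam1 lay below the lower quartile of their span class (-2.05), and Mapt and Gap43 below that of theirs (-0.69). Nefl lay below the lower quartile of the shortest genes (-0.82) and Nefm (-0.68) did not.

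Comparing the rMBD3 virus with the GFP virus gives the difference between the virus arms, and levels of Mbd3 and of either virus were not analysed here. Of the 6 genes Mapt alone passed on average over time and medium, and was lower with rMBD3, with 11% of all genes called (4.58% as lower). The median log2 difference of the 6 was -0.36, against -0.03 for all genes. Mapt had 165.3 to 1542.3 CPM in rMBD3 libraries (median 906.2, 18 libraries) and 210.2 to 2011.9 in GFP libraries (median 1117.3), so the groups overlapped across the time course. Its log2 difference was -0.64 ± 0.19 (adjusted p = 0.0216, edgeR), lower in 17 of 18 same-numbered pairs. Within cultures 1, 2 and 3 the mean difference was -0.64, -0.53 and -0.79. Mapt no longer passed without culture 2 (adjusted p = 0.0549) or without culture 3 (-0.59, adjusted p = 0.275, edgeR).

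Gap43 had 108.7 to 1252.9 CPM in rMBD3 libraries (median 769.6) and 138.7 to 1984.6 in GFP libraries (median 1038.6). Its log2 difference was as large as that of Mapt, at -0.69 ± 0.25, and missed the threshold (adjusted p = 0.0628, edgeR), with 17 of 18 pairs lower. With culture as a block Gap43 passed (-0.67 ± 0.2, adjusted p = 0.0177, edgeR; 17.4% of genes called), and 2 of the 6 were then called. It also passed, at the margin, without the untransfected library of high mitochondrial share (-0.68, adjusted p = 0.05, edgeR) and with DESeq2 (0.0397). Map2 (-0.31 ± 0.21, adjusted p = 0.362), Nefl (-0.4 ± 0.32, 0.456), Nefm (-0.18 ± 0.37, 0.824) and Ncam1 (-0.3 ± 0.15, 0.202, edgeR) did not pass in either fit. A block for each culture within each time point called 5 of the 6 as lower, with 23.8% of genes called. In it Map2 had -0.37 ± 0.12 (adjusted p = 0.0225), Nefl -0.48 ± 0.13 (0.00824), Ncam1 -0.31 ± 0.08 (0.00426) and Nefm -0.19 ± 0.18 (0.507, edgeR).

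**Figure D3:**
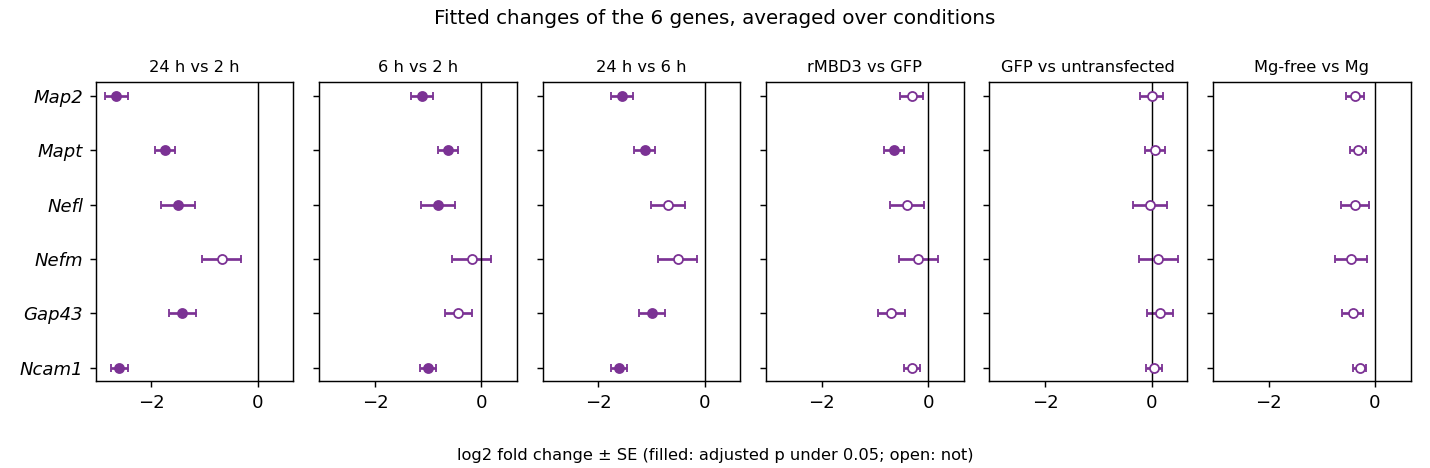
Fitted log2 fold changes with SE for the 6 genes, averaged over conditions, in 6 panels (3 time comparisons, rMBD3 against GFP, GFP against untransfected, and medium); filled points passed an adjusted p of 0.05 and open points did not. The comparison of 24 with 2 h holds the largest changes, from -0.68 for Nefm to -2.66 for Map2, while construct and medium differences lie between -0.69 and 0.16.

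Against untransfected cultures Mapt was again lower with rMBD3, by -0.57 ± 0.19 (adjusted p = 0.0488, edgeR; 8.65% of genes called), the 1 call among the 6. Both comparisons use the same rMBD3 libraries. That call was lost without the untransfected library of high mitochondrial share (-0.42, adjusted p = 0.157), and without any 1 of the cultures (adjusted p = 0.0657, 0.0737 and 0.556). It was also lost with RLE scaling (0.0561) and without the filter on low counts (0.075, edgeR). A block for each culture within each time point called 5 of the 6, again all but Nefm, with 19.7% of genes called.

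With the control virus the fitted averages of the 6 genes lay near the untransfected level. Against untransfected cultures, GFP cultures differed by -0.03 ± 0.32 (Nefl) to 0.16 ± 0.25 (Gap43) on the log2 scale, with adjusted p of 0.961 to 1 (edgeR). Of the 6 genes 0 passed, 0 had an unadjusted p under 0.05, and DESeq2 also called 0, with 0.297% of all genes called by edgeR. Averaged over 6 conditions, the SE was 0.15 to 0.37, so differences of about that size would not have been detected. Larger ones could be missed too: Gap43 missed the threshold at -0.69 ± 0.25 in rMBD3 against GFP.

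The difference between rMBD3 and GFP was largest in size at 24 h for 4 of the genes, although 0 of the 6 passed there, with 0.949% of all genes called (3 of the 6 had an unadjusted p under 0.05). At 24 h Mapt had 634, 170.5 and 196.6 CPM in rMBD3 cultures 1, 2 and 3 with magnesium, against 1012.1, 667.3 and 727.2 in GFP cultures. Without magnesium it had 288.7, 186.9 and 165.3 against 709.2, 210.2 and 452.7 CPM. Every rMBD3 library was lower than its GFP counterpart, with culture 2 without magnesium the closest pair. The log2 fold change of Mapt was -1.18 ± 0.33 (adjusted p = 0.0584, edgeR).

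Gap43 at 24 h had 693.6, 108.7 and 157.3 CPM in rMBD3 cultures with magnesium, against 1165.7, 598.9 and 672 in GFP cultures. Without magnesium it had 226, 109.5 and 119.3 against 702.1, 138.7 and 369.6 CPM. Gap43 was lower in 6 of 6 pairs, by -1.38 ± 0.44 (adjusted p = 0.0929, edgeR). Nefl had 310.2, 16.7 and 35.7 CPM in rMBD3 cultures with magnesium, against 475.4, 104.5 and 161, and without magnesium 102.9, 26 and 24.3 against 265.6, 31.2 and 66.1. It too was lower in 6 of 6 pairs, by -1.14 ± 0.56 (adjusted p = 0.281, edgeR). Nefm differed by -1.13 ± 0.65 (0.372) and was lower in 5 of 6 pairs.

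For Map2 and Ncam1, the genes that had fallen most, the averaged difference between the viruses at 24 h was no larger than its SE. Map2 had 40.6 to 221.9 CPM with rMBD3 and 53 to 214 with GFP, a log2 difference of -0.08 ± 0.36 (adjusted p = 0.957, edgeR). Its mean difference was 0.18, 0.09 and -1 within cultures 1, 2 and 3, and the fitted value lay between -0.46 and 0.14 when 1 culture was left out. Ncam1 had 91.9 to 257.7 CPM with rMBD3 and 84.7 to 284.9 with GFP, a difference of -0.25 ± 0.26 (adjusted p = 0.662, edgeR), and was lower in 5 of 6 pairs. Mitochondrial genes took 2.33% ± 0.624 of counts in rMBD3 and 2.58% ± 0.704 in GFP libraries at 24 h (SD, n = 6 each).

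The calls at 24 h varied with the fit. With culture as a block, Mapt (-1.2 ± 0.29, adjusted p = 0.0162), Gap43 (-1.42 ± 0.36, 0.0182) and Nefl (-1.23 ± 0.38, 0.0408, edgeR) passed, 3 of the 6, with 6.59% of genes called. With a block for each culture within each time point Nefm passed as well (-1.22 ± 0.32, 0.0114), 4 of the 6, with 12.7% of genes called. DESeq2 without a block called Mapt (0.0216) and Gap43 (0.0407), and it called more of all genes than the main fit did. Without culture 1 the same 3 genes as under the culture block passed, at -1.44 to -1.72, whereas without culture 2 or culture 3 none of the 6 did. Among the fits with 1 culture or library left out, the count of all genes called was also highest without culture 1. That count and the count of DESeq2 are given in the closing section on the processing. Whether these calls set the 3 genes apart was not tested. Leaving out the untransfected library of high mitochondrial share, which is in neither group but enters the shared fit, brought Mapt to an adjusted p of 0.0295 (edgeR).

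At 2 h, where 0 of the 6 passed with 0.874% of genes called, the log2 differences ran from -0.58 ± 0.36 (Map2, adjusted p = 0.6) to 0.24 ± 0.65 (Nefm, 0.957, edgeR). Map2, Mapt, Gap43 and Ncam1 were lower with rMBD3 in 6 of 6 pairs at 2 h. Map2 at 2 h had 354.8, 734.4 and 1010.9 CPM in rMBD3 cultures 1, 2 and 3 with magnesium and 319.6, 500.7 and 835 without, against 704.1, 1071.9 and 1020 and 827, 1020.3 and 937.4 in GFP cultures. Within cultures 1, 2 and 3 the mean log2 difference of Map2 at 2 h was -1.18, -0.79 and -0.09. At 6 h, with 0.221% of genes called, 0 of the 6 passed and the differences ran from -0.44 ± 0.32 (Mapt, adjusted p = 0.738) to 0.35 ± 0.65 (Nefm, 0.914, edgeR). Of the 6, 0 had an unadjusted p under 0.05 at 2 or 6 h, and DESeq2 called 0 of them at either time.

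Whether the rMBD3 difference changed with time was tested directly. The change in the log2 difference from 2 to 24 h was -0.87 ± 0.46 for Mapt, -1.1 ± 0.61 for Gap43, -1.09 ± 0.78 for Nefl and -1.37 ± 0.92 for Nefm, and 0.5 ± 0.51 for Map2 and 0.13 ± 0.36 for Ncam1. Of the 6, 0 passed (adjusted p = 0.615 to 0.961, edgeR; 0.0175% of genes called), 0 had an unadjusted p under 0.05, and DESeq2 called 0 of them. That the rMBD3 difference at 24 h was other than that at 2 h was thus not shown for any of them. The dependence of the rMBD3 difference on medium ran from -0.03 ± 0.74 (Nefm) to 0.34 ± 0.3 (Ncam1). It passed for 0 of the 6 (adjusted p = 1, edgeR; 0% of genes called), 0 of them had an unadjusted p under 0.05 against 472 of all genes, and DESeq2 called 0 genes.

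**Figure D4:**
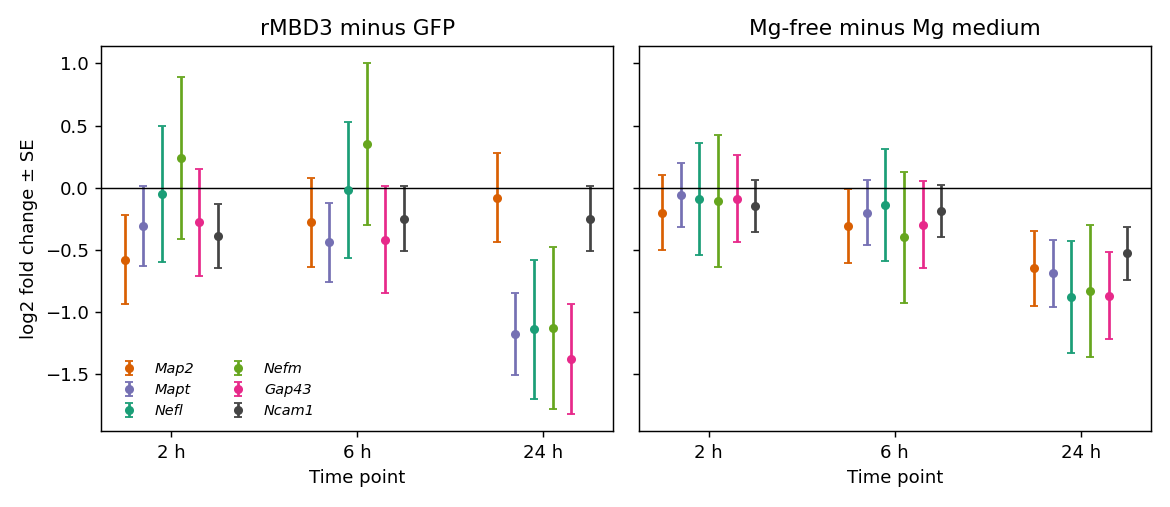
Fitted log2 differences with SE at 2, 6 and 24 h for each gene, in one panel for rMBD3 against GFP and in the other for magnesium-free against magnesium medium. In the rMBD3 panel Mapt, Gap43, Nefl and Nefm lie between -1.13 and -1.38 at 24 h while Map2 and Ncam1 lie at -0.08 and -0.25; in the medium panel all 6 lie between -0.53 and -0.88 at 24 h.

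Removing magnesium relieves the block of NMDA receptors and is a standard way to evoke seizure-like firing in culture. Averaged over constructs and times, the 6 genes had lower means without magnesium, by -0.29 ± 0.12 (Ncam1) to -0.45 ± 0.3 (Nefm) on the log2 scale. Of the 6 genes 0 passed (adjusted p = 0.531 to 0.655, edgeR), and 0% of all genes did. At an unadjusted p under 0.05 there were 4 of the 6 and 1565 of all genes, and DESeq2 called 10 genes, 0 of them among the 6. At 2 h the differences were -0.06 to -0.2 and at 6 h -0.14 to -0.4, with an adjusted p of 1 for each of the 6 (edgeR; 0% of genes called at either time). Unadjusted p under 0.05 numbered 132 and 355 genes, 0 of the 6 among them, and DESeq2 called 1 and 0 genes, none of the 6.

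At 24 h the medium differences were larger and varied widely between pairs. Gap43 had 359.2 ± 357.6 CPM without and 628.1 ± 490.5 with magnesium (SD, n = 9 each), in ranges of 109.5 to 1172.8 (median 226) and 108.7 to 1566.6 (median 598.9). Its log2 difference was -0.87 ± 0.35 (adjusted p = 0.334, edgeR), and it was lower in 6 of 9 pairs, with differences from -2.67 to 1.05. The -2.67 came from the untransfected pair of culture 3 (245.4 against 1566.6 CPM), which holds the library of high mitochondrial share. Over the other settings the fitted value of Gap43 lay between -1.21 and -0.47. The other 5 had -0.53 ± 0.21 (Ncam1), -0.65 ± 0.3 (Map2), -0.69 ± 0.27 (Mapt), -0.83 ± 0.53 (Nefm) and -0.88 ± 0.45 (Nefl), with adjusted p of 0.323 to 0.553 (edgeR). At 24 h 0% of all genes passed, 1988 had an unadjusted p under 0.05, among them Map2, Mapt, Gap43 and Ncam1, and DESeq2 called 103 genes, 0 of them among the 6.

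The block mattered here too. With culture as a block 0 of the 6 passed at 24 h (adjusted p = 0.0931 to 0.229, edgeR; 0.21% of genes called). With a block for each culture within each time point all 6 passed as lower without magnesium, from -0.53 ± 0.12 (Ncam1, adjusted p = 0.00604) to -1.08 ± 0.27 (Nefm, 0.0123, edgeR), when 6.91% of genes were called. In that fit averaged over all times, Map2 (-0.35 ± 0.1, adjusted p = 0.049) and Ncam1 (-0.28 ± 0.07, 0.028) passed, 2 of the 6, with 2.5% of genes called. Within cultures 1, 2 and 3 the mean difference of Gap43 at 24 h was -0.43, -0.62 and -1.31, and that of Map2 -0.73, -0.16 and -0.77. Both culture 3 means include the pair with the library of high mitochondrial share. The change of the medium difference from 2 to 24 h, -0.38 ± 0.3 (Ncam1) to -0.8 ± 0.64 (Nefl), did not pass for any of the 6 (adjusted p = 1, edgeR; 0% of genes called; 0 of the 6 at an unadjusted p under 0.05 and 0 called by DESeq2).

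The neurofilament mRNAs differed in their proportion between time points. Per kb of exon, the ratio of Nefm to Nefl was 0.727 ± 0.173 at 2 h (0.495 to 1.03), 1.13 ± 0.3 at 6 h (0.782 to 1.78) and 1.25 ± 0.431 at 24 h (0.509 to 1.95; SD, n = 18 each). It was higher at 24 than at 2 h in 17 of 18 pairs, by a mean of 0.71 on the log2 scale. Ratios in the rMBD3 libraries were 0.836 ± 0.186, 1.45 ± 0.234 and 1.5 ± 0.32 at the 3 times, and those in the GFP libraries 0.693 ± 0.158, 1.04 ± 0.212 and 1.3 ± 0.269 (SD, n = 6 each). In the untransfected libraries they were 0.653 ± 0.143, 0.9 ± 0.116 and 0.945 ± 0.52, with medians of 0.618 at 2 h and 0.693 at 24 h. The highest untransfected ratio at 24 h, 1.7, was in the library of high mitochondrial share. The rMBD3 ratio was above that of GFP in 15 of 18 pairs, by a mean of 0.32 on the log2 scale, in 3 of 6 pairs of culture 1 and in 6 of 6 of each other culture. GFP was above untransfected in 16 of 18 pairs, by a mean of 0.29. Removal of magnesium left no steady direction, with 13 of 27 pairs higher. These ratios are given as descriptions, without a test.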

How the data were processed

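RNA was measured in 54 libraries of rat E18 cortical cultures, 18 groups of 3; groups and culture numbers were taken from the labels. Per the labels, a stranded mRNA kit and STAR were used; they name rn6, whereas the submitters' processing notes name mRatBN7.2 and also Trim Galore. Per the file headers, the authors' counts are read pairs per gene from featureCounts 2.0.0 (strand setting 2, mapping quality at least 3, primary alignments, Ensembl release 105 of mRatBN7.2), and the same file gives the exonic length. Such counts can lose reads shared with near-identical genes. A deposited table of log2 values of the same libraries was not used.

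Counts were tested with edgeR 4.0.16 in R 4.3.3: filterByExpr (minimum count 10, minimum total 15), TMM scaling, and a robust quasi-likelihood fit with 1 mean per group over all 54 libraries. Comparisons were contrasts with equal weight per condition. Benjamini-Hochberg adjustment ran over 17172 genes, with a threshold of 0.05. CPM values are TMM-scaled, and each SE was obtained from the F statistic of its contrast. The script was tested on simulated counts. The common biological coefficient of variation was 39.7%. A count of 3, the lowest taken as detectable, was 0.0756 to 0.208 CPM, counting error only. Replicates of a group all differed by more than sampling noise (chi-square per gene 9.76 to 358 in 54 pairs).

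The cell culture number in the labels pairs libraries across groups. Deviations from group means had a mean correlation of 0.188 where the number was shared (0.277 within and 0.151 across time points) and of -0.0902 where it was not. Nothing says that the 3 cultures came from separate litters. The main fit treated the 54 libraries as independent, so its p-values measure the spread between libraries within groups. That spread mixes differences between cultures with differences between libraries of the same culture. Fits with a block take the differences between cultures out. Neither kind of p-value measures the spread between cultures alone.

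Alternatives were culture as a block, a block for each culture within each time point, DESeq2 1.42.0 with its own size factors, RLE factors, no filter on low counts, and each culture number left out. Leaving out 1 library was added after seeing the data, and the block within time points goes back to earlier work on these data that had seen them. The members and lists were chosen with earlier results of these data known. Named genes were the 6, plus, by smallest profile distance, up to 2 rising and 2 falling genes outside them; none of the nearest genes rose. Lists of other cytoskeletal genes and of cell type markers need symbols, which the count table does not hold (0 of its identifiers matched), and were not analysed here.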

Additional observations from a re-analysis of the deposited data

How the results depend on the processing

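Over 8 other settings, 1 more added after seeing the data, and 96 values (6 genes in 16 comparisons), 766 recomputed values kept direction and side of the threshold, 38 newly passed, 13 no longer passed and 29 changed sign. The falls of Map2, Mapt, Nefl, Gap43 and Ncam1 from 2 to 24 h passed under every one of them that could be run for these comparisons.

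With the replicate block (the culture number), genes called were 2992 (rMBD3 against GFP, 2 of the 6 among them; 1886 and 1 without it), 2259 (against untransfected), 230 (GFP against untransfected), 458, 243 and 1131 (rMBD3 against GFP at 2, 6 and 24 h, 3 of the 6 at 24 h), 36 (medium at 24 h) and 6 (change of the rMBD3 difference with time). Nefm reached 0.01 (rMBD3 against untransfected), 0.05 (medium at 2 h) and 0.15 (dependence of the rMBD3 difference on medium), and Nefl 0.01 (GFP against untransfected; medium at 2 h). Beyond the calls given with the results, this block changed none for the 6 genes.

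With the replicate block within time point, counts were 4083 (rMBD3 against GFP, 5 of the 6), 3380 (against untransfected, 5), 501 (GFP against untransfected), 1035, 533 and 2174 (rMBD3 at 2, 6 and 24 h, 4 at 24 h), 429 (medium, 2), 1186 (medium at 24 h, 6), 25 (rMBD3 difference with time) and 1 (with medium). Nefm was 0.03 against untransfected and 0.35 for the last.

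DESeq2 called 280 (GFP against untransfected), 382, 189 and 590 (rMBD3 at 2, 6 and 24 h, 2 of the 6 at 24 h), 10 (medium), 1 and 103 (medium at 2 and 24 h), and 11 and 5 for the changes with time of the rMBD3 and medium differences; 2 of the 6 passed for rMBD3 against GFP on average. RLE factors gave 67 (rMBD3 at 6 h) and 1 (medium at 24 h), and no filter gave 24 and 70 (rMBD3 at 6 and 24 h); both left 0 of the 6 for rMBD3 against untransfected. Map2 in GFP against untransfected was -0.01 under DESeq2 and RLE, and Nefl at 6 h (rMBD3) was 0.

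Leaving out 1 culture or the 1 library gave ranges of 5179 to 9767 (6 against 2 h; 2 to 4 of the 6), 5413 to 10244 (24 against 6 h), 309 to 2468 (rMBD3 against GFP; 0 to 2), 322 to 2399 (against untransfected; 0), 0 to 112 (GFP against untransfected), 1 to 215, 1 to 107 and 1 to 1766 (rMBD3 at 2, 6 and 24 h; 0 to 3 at 24 h), 0 to 176 (medium at 24 h) and 0 to 54 (rMBD3 difference with time). The high ends of the gene counts came without culture 1 except the 112 and 107, which came without the library. Sign changes had ranges of -0.07 to 0.1 (Nefm, rMBD3 against untransfected), -0.08 to 0.03 (Nefl) and -0.05 to 0.04 (Map2, GFP against untransfected), -0.15 to 0.08 and -0.14 to 0.11 (Nefl, rMBD3 at 2 and 6 h) and -0.46 to 0.14 (Map2 at 24 h). For medium at 2 h they were -0.23 to 0.07 (Nefl), -0.23 to 0.14 (Nefm) and -0.19 to 0.05 (Gap43), and at 6 h -0.24 to 0.03 (Nefl) and -0.52 to 0.01 (Nefm). The changes of the rMBD3 difference with time ranged over -0.08 to 1.05 (Map2) and -0.14 to 0.25 (Ncam1), and that with medium over -0.14 to 0.41 (Nefm). The cause was not tested in any of these. The median log2 change of all genes lay between -0.06 and 0.07 in all comparisons and settings, and depth did not limit the 6 genes, whose lowest count was 467.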
